A study of Arundo donax with 12 samples.

Results

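Of the 126668 unigenes counted in giant reed (Arundo donax), 7 that encode transcription factors of the AP2/ERF family are described here one by one. They are the ERF and AP2 unigenes listed by name in the study's table of cadmium-related genes, apart from 2 others of that table that are given further below. The family takes its name from the DNA-binding AP2 domain. ERF proteins carry a single AP2 domain and many of them act at the end of the ethylene pathway, where the receptor signal passes through EIN2 to the EIN3 factors, which switch on ERF genes, while members of the AP2 subfamily carry a pair of such domains and act mainly in meristems and organ growth. In Arabidopsis, ERF proteins are known for roles in responses to low oxygen, drought and pathogens and in the making of the cuticle.

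The plants were of the G10 ecotype, each grown from 1 stem node in a pot of clay soil. Cd plants received cadmium nitrate at 4 mg/kg of soil, and control (CK) plants received ammonium nitrate in its place, which was meant to even out the nitrogen supply. Ammonium was thus given to the CK plants only, so that an effect of cadmium and an effect of the nitrogen source cannot be told apart in any Cd against CK comparison. Roots (R) and fully expanded leaves (L) were taken after 3 months from 3 pots per treatment, which gave the 4 groups Cd_R, CK_R, Cd_L and CK_L with 3 biological replicates each. Roots and leaves of a treatment came from the same pots, but the labels do not say which root and leaf libraries share a pot. The main comparisons of organs therefore treat the libraries as independent.

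The 12 libraries held between 22157170 and 26033492 counts, and 1 CPM (the unit of counts scaled to library size, here on the TMM scale that also evens out library composition) corresponded to 24.4 counts on average. Roots and leaves lay apart on the first principal component, with 76.4% of the variance, and this is the only check of the organ labels made here, since the table carries no gene names from which organ markers could be drawn. CK_R replicate 3 and Cd_R replicate 1 stood apart from the other root libraries on the second component (6.42% of the variance) and had counts for 100357 and 105252 unigenes, against 81451 to 87756 in the other 4 root libraries. Results in roots are therefore also given without this pair of libraries where they moved. The tissues were ground as a whole, so that fewer cells of a type and less RNA per cell cannot be told apart.

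All 7 unigenes were of low abundance, with group means of at most 8.99 CPM. In the text each is called by its best Arabidopsis match. Functions named with them are those of the Arabidopsis proteins, and whether the giant reed unigenes share them was not tested. Cluster-14691.17960 (named CRF1-related in the study) is called RAP2.2 and Cluster-14691.5263 (ERF071-related) is called HRE2. In Arabidopsis both are group VII ERF factors, whose stability depends on oxygen and which activate genes of the low-oxygen response. Cluster-15337.0 is AIL1, an AINTEGUMENTA-like protein and the only one of the 7 in the AP2 subfamily. Cluster-14691.77282 is ERF003. Cluster-14691.27999 (CRF5-related) is called ERF053, after an Arabidopsis factor linked to drought tolerance. Cluster-14691.28900 is ERF11, in Arabidopsis a repressor of transcription that restrains ethylene synthesis, and Cluster-14691.32159 is SHN1 (also WIN1), in Arabidopsis an activator of wax and cutin synthesis in the epidermis. Reads of near-identical gene copies could have been split between unigenes by the assembly and the counting, and this could not be checked without their sequences.

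Over all libraries, 6 of the 7 unigenes had higher mean levels in roots than in leaves, and SHN1 had a lower one. The share of a unigene's CPM that was found in the 6 root libraries was 100% for AIL1, 97.1% for ERF003, 96.2% for HRE2, 89.8% for RAP2.2, 83.2% for ERF11 and 75.7% for ERF053, against 20.8% for SHN1. These shares rest on totals of 122 to 1152 counts over the 12 libraries. AIL1, ERF003, HRE2 and RAP2.2 were without any count in 6, 4, 2 and 2 of the 12 libraries, all of them leaf libraries, while ERF053, ERF11 and SHN1 had at least 5 counts in every library.

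**Figure D1:**
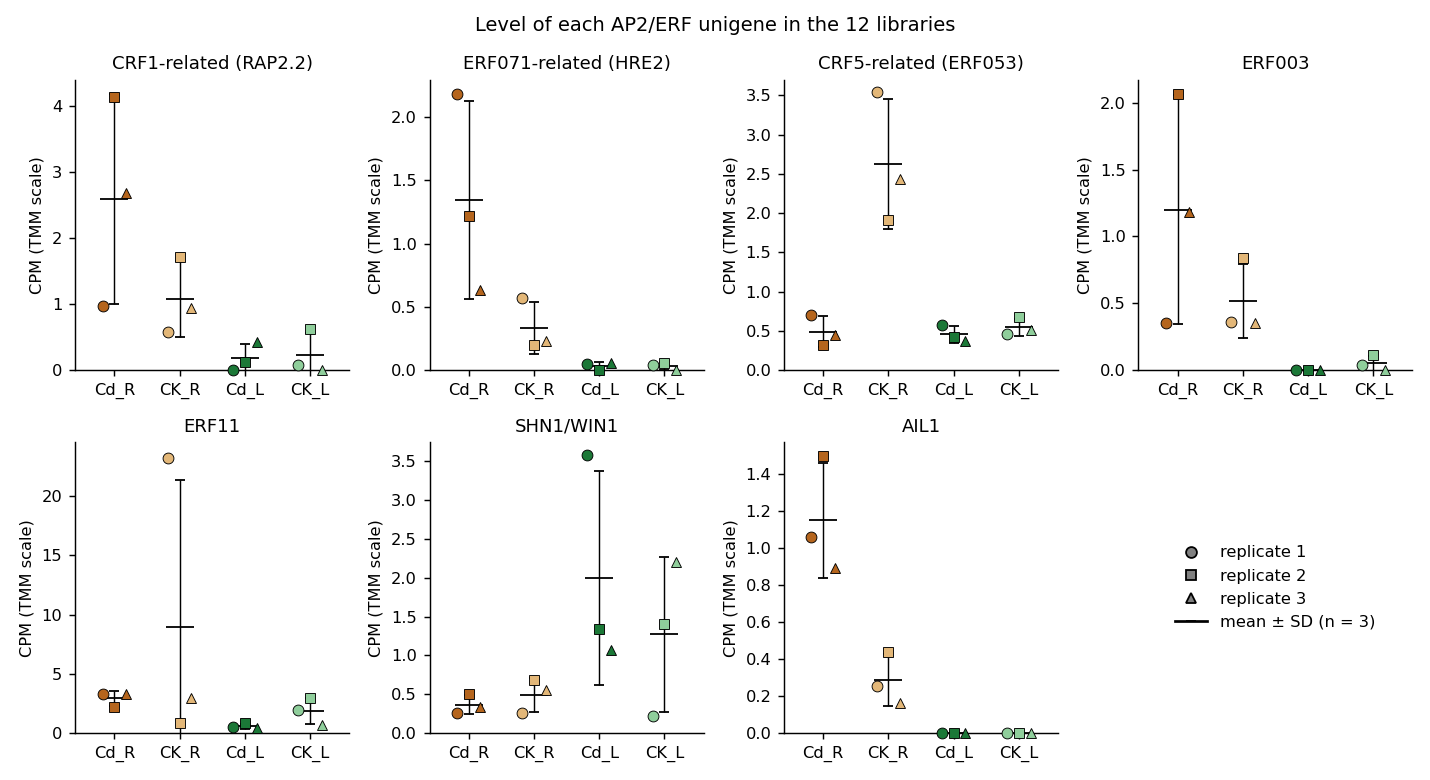
Level of each of the 7 AP2/ERF unigenes in every library, in CPM on the TMM scale, with a separate linear axis for each unigene. Points are libraries (shape gives the replicate), and bars give each group's mean ± SD (n = 3). AIL1 is at 0 in all 6 leaf libraries, ERF053 is highest in the 3 CK_R libraries, and the CK_R mean of ERF11 is carried by replicate 1 at 23.2 CPM.

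RAP2.2, a factor of the low-oxygen response, was highest in Cd_R. Its level was 0.966, 4.14 and 2.68 CPM in Cd_R replicates 1, 2 and 3, against 0.578, 1.71 and 0.940 CPM in CK_R replicates 1, 2 and 3. Leaf libraries held 0 to 0.426 CPM in Cd_L and 0 to 0.617 CPM in CK_L, from 10.99 and 13 counts per group. Cd_R replicates 2 and 3 were above all CK_R libraries. Cd_R replicate 1, which is among the libraries that stood apart, lay within the range of CK_R, so that the root groups overlapped. The means were 2.59 ± 1.59 CPM in Cd_R and 1.08 ± 0.581 CPM in CK_R (SD, n = 3 each). The log2 fold change in Cd_R vs CK_R was 1.25 (SE 0.63), which did not pass the test (unadjusted p = 0.0876, adjusted p = 0.999 by the quasi-likelihood test of edgeR, adjusted after Benjamini-Hochberg over all unigenes tested). Over all settings it ran from 0.77 (without Cd_R replicate 2, its highest library) to 1.74. Neighbouring groups in the order Cd_R, CK_R, CK_L and Cd_L all overlapped.

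HRE2, the other group VII factor, had Cd_R libraries that were all above the CK_R libraries. Its level was 2.18, 1.22 and 0.632 CPM in Cd_R replicates 1, 2 and 3, against 0.569, 0.199 and 0.227 CPM in CK_R replicates 1, 2 and 3. In leaves it was nearly absent, with 2 counts over the 3 Cd_L libraries and 2 counts over the 3 CK_L libraries. The gap between the lowest Cd_R and the highest CK_R library was small, as these hold 17 and 15.76 counts. In Cd_R vs CK_R its log2 fold change was 2.02 (SE 0.66, unadjusted p = 0.0195, adjusted p = 0.999, edgeR with Benjamini-Hochberg adjustment). The highest value came from Cd_R replicate 1, which is among the libraries that stood apart. Without that library and CK_R replicate 3 the log2 fold change was 1.23.

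AIL1 was detected in all 6 root libraries and in none of the 6 leaf libraries. Related AINTEGUMENTA-like proteins of Arabidopsis act in root and shoot meristems. It had 1.06, 1.50 and 0.892 CPM (33, 42 and 24 counts) in Cd_R replicates 1, 2 and 3, against 0.253, 0.438 and 0.162 CPM (7, 11 and 5 counts) in CK_R replicates 1, 2 and 3. All Cd_R libraries were thus above all CK_R libraries, with means of 1.15 ± 0.312 CPM in Cd_R and 0.284 ± 0.141 CPM in CK_R (SD, n = 3 each). The log2 fold change was 2.02 (SE 0.50, unadjusted p = 0.00521, adjusted p = 0.999, edgeR with Benjamini-Hochberg adjustment), and it was 1.78 without CK_R replicate 3 and Cd_R replicate 1. Of all unigenes tested in this comparison, 0.403% had a p as low or lower. The study chose AIL1 on these same libraries, so that this share is no independent evidence.

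ERF003 was also close to restricted to roots, with no count in Cd_L and 3 counts over the CK_L libraries. Its level was 0.354, 2.07 and 1.18 CPM in Cd_R replicates 1, 2 and 3, against 0.361, 0.837 and 0.356 CPM in CK_R replicates 1, 2 and 3. Cd_R replicate 1, which is among the libraries that stood apart, was the lowest root library, so that the root groups overlapped. Cd_R replicates 2 and 3 were above all CK_R libraries. In Cd_R vs CK_R its log2 fold change was 1.20 (SE 0.70, unadjusted p = 0.132, adjusted p = 0.999, edgeR with Benjamini-Hochberg adjustment). Over all settings it ran from 0.58 (without Cd_R replicate 2) to 1.72.

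ERF053 was the one unigene of the 7 that was lower in every Cd_R library than in every CK_R library. It had 0.708, 0.321 and 0.446 CPM (22, 9 and 12 counts) in Cd_R replicates 1, 2 and 3, against 3.54, 1.91 and 2.43 CPM (97.98, 48 and 75 counts) in CK_R replicates 1, 2 and 3. Leaf libraries held 0.578, 0.419 and 0.373 CPM in Cd_L replicates 1, 2 and 3, against 0.459, 0.673 and 0.508 CPM in CK_L replicates 1, 2 and 3. The Cd_R libraries thus overlapped the leaf libraries, with Cd_R replicate 1 above and Cd_R replicate 2 below the leaf range. CK_R was the single group that stood above the other 3. The means were 0.492 ± 0.198 CPM in Cd_R and 2.63 ± 0.829 CPM in CK_R (SD, n = 3 each), with a log2 fold change of -2.39 (SE 0.46). This difference did not pass the main test (unadjusted p = 0.00139, adjusted p = 0.999, edgeR with Benjamini-Hochberg adjustment), although only 0.0922% of the unigenes tested had a p as low or lower. DESeq2, the tool the study used, called it (log2 fold change -2.40, adjusted p = 0.00963 with default settings and 0.0291 without independent filtering, Benjamini-Hochberg adjustment). The study had picked this unigene as differing between Cd_R and CK_R in these same libraries, so that its call by the same tool is no independent evidence. Without CK_R replicate 3 and Cd_R replicate 1 the log2 fold change was -2.82.

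ERF11, the repressor, had a root comparison that rested on 1 library. Its level was 3.32, 2.18 and 3.27 CPM in Cd_R replicates 1, 2 and 3, against 23.2, 0.837 and 2.92 CPM in CK_R replicates 1, 2 and 3. CK_R replicate 1 held 643 of the 754 counts of its group, while CK_R replicate 2 was below all Cd_R libraries and CK_R replicate 3 lay within their range. The log2 fold change in Cd_R vs CK_R was -1.59 (SE 1.07, unadjusted p = 0.183, adjusted p = 0.999, edgeR with Benjamini-Hochberg adjustment), and it was 0.62 without CK_R replicate 1, so that its sign depends on that library. In leaves ERF11 had 0.471, 0.797 and 0.373 CPM in Cd_L replicates 1, 2 and 3, against 1.96, 2.91 and 0.678 CPM in CK_L replicates 1, 2 and 3. CK_L replicate 3 lay within the Cd_L range. The log2 fold change in Cd_L vs CK_L was -1.71 (SE 0.59, unadjusted p = 0.0209, adjusted p = 1.00, edgeR with Benjamini-Hochberg adjustment), and it remained below 0 with each leaf library left out in turn, at -2.13 to -1.26.

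SHN1, the cuticle regulator, was the one unigene with higher levels in leaves. It had 3.58, 1.34 and 1.07 CPM in Cd_L replicates 1, 2 and 3, against 0.213, 1.40 and 2.203 CPM in CK_L replicates 1, 2 and 3. The spread within each leaf group was wide and the groups overlapped, with a log2 fold change in Cd_L vs CK_L of 0.68 (SE 0.77) and of -0.03 without Cd_L replicate 1. Roots held 0.258, 0.499 and 0.335 CPM in Cd_R replicates 1, 2 and 3, against 0.253, 0.678 and 0.551 CPM in CK_R replicates 1, 2 and 3. These root groups overlapped as well, and the log2 fold change in Cd_R vs CK_R was -0.44 (SE 0.53, unadjusted p = 0.431, adjusted p = 0.999, edgeR with Benjamini-Hochberg adjustment).

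The order of the group means was Cd_R, CK_R and then both leaf groups for RAP2.2, HRE2, ERF003 and AIL1. Every step down to leaves was free of overlap for HRE2, ERF003 and AIL1, and the step between Cd_R and CK_R was so for HRE2 and AIL1. For ERF053, CK_R came first without overlap, and CK_L, Cd_R and Cd_L followed with overlapping values. For ERF11 (CK_R, Cd_R, CK_L, Cd_L) and SHN1 (Cd_L, CK_L, CK_R, Cd_R), all neighbouring groups overlapped.

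Counted together, 4 of the 7 unigenes had a positive and 3 a negative log2 fold change in Cd_R vs CK_R, against 48.2% positive values over all unigenes tested, and 0 of the 7 passed the limits for a differentially expressed unigene (DEG, an adjusted p of at most 0.05 and at least a 2-fold change). The same limits called 0% of all 55317 unigenes tested by edgeR in this comparison. An unadjusted p under 0.05 was found for 3 of the 7 (HRE2 and AIL1 higher, ERF053 lower in Cd_R), against 4.62% of all unigenes tested, 1.8% as higher and 2.82% as lower. The root groups did not overlap for the same 3 either, against 9.59% of all unigenes tested, 5.1% as higher and 4.49% as lower. These shares of the 7 cannot be read as a property of the family, since the study chose the unigenes on these libraries. The median log2 fold change of the 7 was 1.20, against -0.02 over all unigenes tested, with values of -2.39 to 2.02. Leaving out CK_R replicate 3 and Cd_R replicate 1 left 4 positive and 3 negative values and 0 calls, and leaving out CK_R replicate 1 alone left 5 and 2, as ERF11 changed its sign.

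In Cd_L vs CK_L, only ERF053, ERF11 and SHN1 had enough counts to be tested. None of the 3 passed the limits, which called 0% of the 48194 unigenes tested, and 1 of the 3 (ERF11, lower in Cd_L) had an unadjusted p under 0.05, against 4.25% of all unigenes tested and 2.49% as lower. The log2 fold change of ERF053 was -0.26 (SE 0.43) in leaves. For AIL1 both leaf groups were at 0 counts, which allows no fold change, and for ERF003 Cd_L was at 0 and CK_L at 3 counts, which is at the floor of 3 counts over a group used here. For HRE2 the ratio of Cd_L to CK_L was 0.924, with an exact 95% interval of 0.0669 to 12.7 that covers counting error only. A difference in leaves was thus not detectable at this depth for these unigenes.

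**Figure D2:**
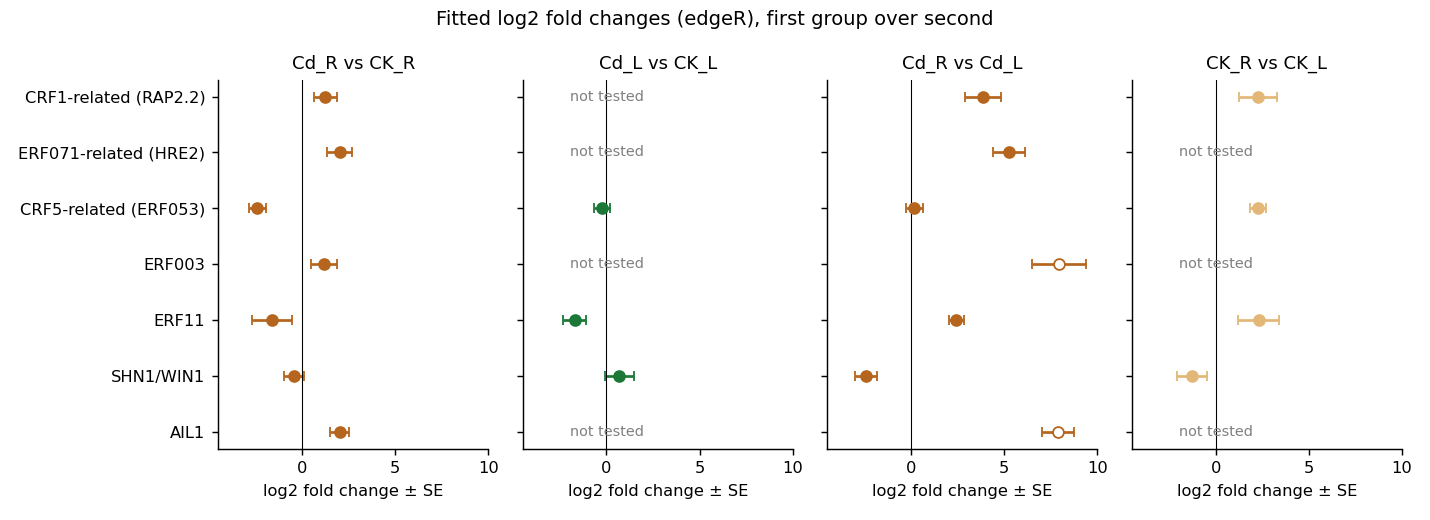
Log2 fold changes of the 7 unigenes fitted by edgeR in each comparison, first group over second, with horizontal bars of 1 SE around each point. Open circles mark unigenes without any count in the second group, whose fitted value depends on the prior count and is no bound. In Cd_R vs CK_R, ERF053 lies at -2.39 and HRE2 and AIL1 at 2.02, and in Cd_R vs Cd_L only ERF053 lies near 0, at 0.17.

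Under cadmium, most of the 7 differed between the organs. In Cd_R vs Cd_L, 6 of the 7 unigenes were DEGs, 5 of them higher and 1 (SHN1) lower in roots. The same limits called 40.9% of all 54423 unigenes tested, 23% as higher and 17.9% as lower in roots. The study took most of these unigenes from those that differed between organs under cadmium and not in the control plants, in these same libraries, so that nothing follows from the count of 6. ERF003 and AIL1 had no count in Cd_L, and their Cd_R levels were at least 24.9-fold and at least 24.5-fold higher than a floor of 3 counts over the Cd_L libraries. For HRE2, with 2 counts in Cd_L, the ratio of Cd_R to Cd_L was 44.2, with an exact 95% interval of 11.96 to 369 for counting error only. On the log2 scale RAP2.2 was higher in Cd_R by 3.86 (SE 0.95, adjusted p = 0.0140), ERF11 by 2.44 (SE 0.41, adjusted p = 0.00298) while SHN1 stood at -2.41 (SE 0.58, adjusted p = 0.0129), all from edgeR with Benjamini-Hochberg adjustment. With 1 library less, the adjusted p of RAP2.2 was 0.0632 at a log2 fold change of 3.63 (without Cd_L replicate 2) and that of SHN1 was 0.0501 at -2.32 (without Cd_R replicate 3; edgeR, Benjamini-Hochberg), so that these calls were lost while the fold changes moved little. ERF053 did not differ detectably between Cd_R and Cd_L, at 0.17 on the log2 scale (SE 0.45, adjusted p = 0.779, edgeR with Benjamini-Hochberg adjustment).

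In the control plants ERF053 was the one unigene of the 7 called between the organs by the main test. In CK_R vs CK_L 4 of the 7 had enough counts to be tested, and ERF053 stood at 2.29 on the log2 scale (SE 0.43, adjusted p = 0.00423, edgeR with Benjamini-Hochberg adjustment), and all 3 CK_R libraries were above all 3 CK_L libraries. The limits called 39.1% of the 54084 unigenes tested in this comparison. The number of the 7 called was 2 with at least 10 counts in each of 3 libraries, 3 with default DESeq2 settings and 4 with all 12 libraries in one fit, so that the count of 1 depends on the setting. The shares of all unigenes called under these settings are not given here, so that nothing follows about the 7 from the larger counts. RAP2.2 (log2 fold change 2.27, SE 1.00, adjusted p = 0.108), ERF11 (2.31, SE 1.12, adjusted p = 0.140) and SHN1 (-1.29, SE 0.80, adjusted p = 0.239) had the same sign as under cadmium and did not pass in this edgeR test. The value of ERF11 again rested on CK_R replicate 1 and was 0.09 without it, and RAP2.2 passed without CK_L replicate 2 (log2 fold change 4.37, adjusted p = 0.0233, edgeR with Benjamini-Hochberg adjustment). The other 3 unigenes were too sparse for the test, but they too were higher in roots, with a ratio of CK_R to CK_L of 9.78 for HRE2 (exact 95% interval 2.49 to 85.5) and of 9.87 for ERF003 (3.15 to 49.8), and with AIL1 at least 5.40-fold higher in CK_R. For these 3, all CK_R libraries were above all CK_L libraries. The same held for 28.7% of the unigenes tested, a set without these 3, which were too sparse for it.

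Whether the organ difference itself differed between treatments was tested by the interaction, (Cd_R - CK_R) - (Cd_L - CK_L), in all 12 libraries. None of the 7 passed, as the limits called 0% of the 61242 unigenes tested (edgeR, lowest adjusted p of any unigene 0.936). ERF053 had the lowest unadjusted p of the 7 (log2 value -2.10, SE 0.60, unadjusted p = 0.00479, adjusted p = 1.00, edgeR with Benjamini-Hochberg adjustment), and 0.185% of all unigenes had a p as low or lower. As the study picked ERF053 on Cd_R vs CK_R in these libraries, this share is no independent evidence. ERF003 followed (log2 value 4.66, SE 1.97, unadjusted p = 0.0413, adjusted p = 1.00, edgeR with Benjamini-Hochberg adjustment), a value that depends on the prior count because Cd_L is at 0. An unadjusted p under 0.05 was found for 3.17% of all unigenes. RAP2.2, HRE2, ERF11 and SHN1 had log2 values of 1.62, 2.10, 0.14 and -1.09, with unadjusted p from 0.217 to 0.913 in the same edgeR fit. The sign of RAP2.2 turned without CK_L replicate 2 (log2 value -0.55), and that of ERF11, close to 0, turned under 5 alternatives (log2 values of -0.43 to 2.34 over all alternatives). AIL1, without counts in leaves, cannot be judged for an interaction. A call in Cd_R vs Cd_L together with no call in CK_R vs CK_L is therefore not shown to be a difference between treatments for any of these unigenes.

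Which of the unigenes moved together was examined within roots and within leaves, on log2 CPM, because the organs form separate clusters. Among the 3 members with a mean of at least 1 CPM in roots (RAP2.2, ERF053 and ERF11), 0 of 3 pairs passed (lowest adjusted p = 0.183, exact permutation test of Pearson's r, two-sided, Benjamini-Hochberg over the pairs). The strongest was RAP2.2 with ERF053, at r = -0.82 (exact permutation p = 0.0611) and Spearman's rho = -0.94 (exact permutation p = 0.0167, adjusted p = 0.05, at the limit). Without the 2 libraries farthest from the median of RAP2.2 (Cd_R replicate 2 and CK_R replicate 1) r was -0.51, while it was -0.98 on deviations from the group means and -0.94 without CK_R replicate 3 and Cd_R replicate 1.

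When all 7 were included, a wider set chosen after seeing the data, 0 of 21 root pairs passed and 3 had an unadjusted p under 0.05 (exact permutation test, n = 6). RAP2.2 and ERF003 had r = 0.97 (exact permutation p = 0.00833, adjusted p = 0.175) and rho = 0.77 (exact permutation p = 0.103), and were both highest in Cd_R replicate 2, next highest in Cd_R replicate 3 and then in CK_R replicate 2. Their r was 0.96 on deviations from the group means and 0.99 without the 2 farthest libraries, and 0.99 without CK_R replicate 3 and Cd_R replicate 1. ERF053 and AIL1 had r = -0.93 (exact permutation p = 0.0194, adjusted p = 0.185) and rho = -0.89 (exact permutation p = 0.0333), and r = -0.90 without the 2 farthest libraries. On deviations from the group means their r was -0.49, so that the 2 treatments carried much of the relation. ERF11 and SHN1 had r = -0.77 (exact permutation p = 0.0264, adjusted p = 0.185) and rho = -0.94 (exact permutation p = 0.0167), with r = -0.69 without the 2 farthest libraries and r = -0.90 on deviations from the group means.

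The group VII factors RAP2.2 and HRE2 had no detectable relation across root libraries, at r = 0.15 (exact permutation p = 0.765), and r was 0.41 without CK_R replicate 3 and Cd_R replicate 1. HRE2 was highest in Cd_R replicate 1, where RAP2.2 was lower than in the other Cd_R libraries, and on deviations from the group means r was -0.74. In leaves, only ERF11 and SHN1 had a mean of at least 1 CPM, and this 1 pair did not pass (r = -0.50, exact permutation p = 0.331). In the wider set with ERF053, also chosen after seeing the data, 0 of 3 pairs passed. Their r lay between -0.50 and 0.58, with a lowest exact permutation p of 0.221. With 6 libraries an exact permutation p cannot be lower than 0.00139, which after adjustment over 21 pairs could still pass.

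**Figure D3:**
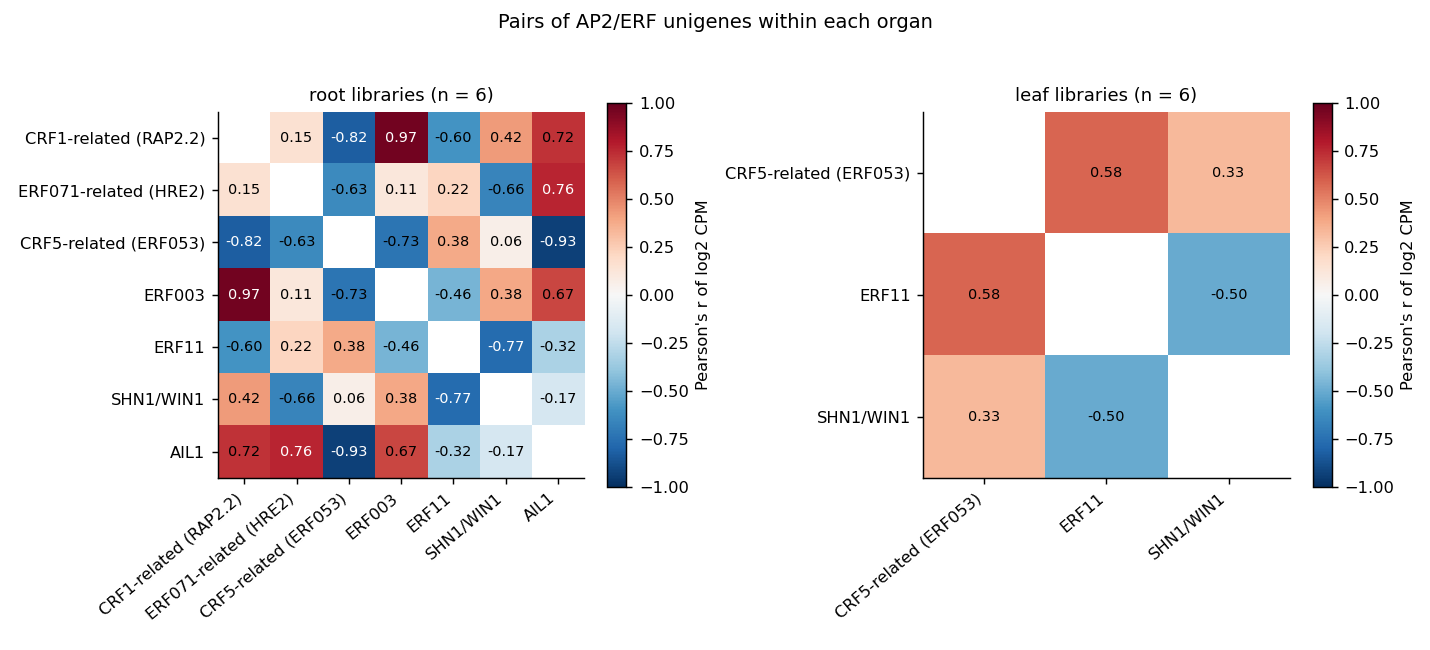
Pearson's r of log2 CPM for each pair of AP2/ERF unigenes within the 6 root libraries (left) and, for the 3 unigenes with enough counts, within the 6 leaf libraries (right), with the value printed in each cell and the colour scale running from -1 to 1. RAP2.2 with ERF003 is the highest value in roots at 0.97 and ERF053 with AIL1 the lowest at -0.93; no pair passed after adjustment.

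Over all 12 libraries, the annotated unigenes with a profile most like each of the 7 were looked up among 172 that the study's tables name, as a description, since the points share organ and depth. RAP2.2 was closest to ribosomal protein unigenes RPL40 (r = 0.96) and RPL37a (r = 0.95), and ERF003 to a unigene for the elongation factor EF-Ts (r = 0.96) and to RPL34 (r = 0.96). AIL1 was closest to a unigene for an EPF/EPFL peptide precursor (r = 0.95) and to RACK1 (r = 0.95), and HRE2 to AIL1 itself (r = 0.94) and to an auxin efflux carrier of the PIN family (r = 0.93). Within the 6 root libraries alone, the r of RAP2.2 was 0.93 with RPL40 and 0.68 with RPL37a, and that of HRE2 with AIL1 was 0.76. ERF11, ERF053 and SHN1 had weaker matches, at most r = 0.85 with a COB protein unigene, 0.71 with a SLY unigene and 0.72 with a vacuolar iron transporter. An r of at least 0.9 was reached by 3114 of the 61241 other unigenes for ERF003 and by 1872 for AIL1, against 495 for RAP2.2, 492 for HRE2, 50 for ERF053, 7 for ERF11 and 2 for SHN1.

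The study's tables annotate 3 further AP2/ERF unigenes. ORA59, in Arabidopsis an integrator of ethylene and jasmonate signals, had 3, 8 and 16 counts in Cd_R replicates 1, 2 and 3, against 7, 3 and 7 counts in CK_R replicates 1, 2 and 3, and 0 counts in all leaf libraries. RAP2.11, in Arabidopsis linked to the response to low potassium, averaged 0.835 ± 0.297 CPM in Cd_R and 0.765 ± 0.573 CPM in CK_R (SD, n = 3 each), with a log2 fold change of 0.10 (SE 0.68). A second unigene of the SHN type (Cluster-14691.1688) averaged 1.69 ± 0.152 CPM in Cd_R and 1.30 ± 0.631 CPM in CK_R (SD, n = 3 each). Unlike SHN1 it was higher in roots than in leaves, at 1.35 on the log2 scale (SE 0.32, adjusted p = 0.0120) in Cd_R vs Cd_L by edgeR with Benjamini-Hochberg adjustment, while no test compared the 2 unigenes directly. None of the 2 that could be tested (RAP2.11 and this unigene) passed in Cd_R vs CK_R, and both were DEGs with higher levels in Cd_R in Cd_R vs Cd_L. That comparison called 40.9% of all unigenes tested, 23% as higher in roots, and the study chose its lists on these libraries.

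Upstream of the ERF factors, 7 unigenes of ethylene synthesis and signalling are named in the study's tables. They are 3 unigenes for ACC oxidase, which makes ethylene, the signal transducer EIN2, an EIN3-like factor, an EBF protein, which targets EIN3 factors for breakdown, and ARGOS, which in Arabidopsis dampens ethylene sensitivity. In Cd_R vs CK_R, 5 had a positive and 2 a negative log2 fold change, with a median of 0.15 and 0 of 7 called by edgeR. Over all unigenes tested, 48.2% were positive. Without CK_R replicate 3 and Cd_R replicate 1, 4 of the 7 were positive and 3 negative, with a median of 0.43. The largest was an ACC oxidase (Cluster-14691.30304), at 30.1, 26.9 and 43.9 CPM in Cd_R replicates 1, 2 and 3, against 18.2, 19.9 and 18.6 CPM in CK_R replicates 1, 2 and 3. All Cd_R libraries were above all CK_R libraries for it, with a log2 fold change of 0.83 (SE 0.24, unadjusted p = 0.0105, adjusted p = 0.999, edgeR with Benjamini-Hochberg adjustment). Of all unigenes tested, 5.1% had Cd_R above CK_R without overlap, and 1.8% were higher with an unadjusted p under 0.05 (edgeR). EIN2 was at -0.45 (SE 0.45), the EIN3-like unigene at 0.15 (SE 0.36) and EBF at 0.70 (SE 0.46) on the log2 scale. In Cd_L vs CK_L, 0 of the 5 that were tested were called, with 2 positive and 3 negative values, or 3 and 2 with library totals in place of TMM. In Cd_R vs Cd_L, 6 could be tested, of which 5 were DEGs with higher levels in roots, EIN2 (log2 fold change 1.92, SE 0.47) and the EIN3-like unigene (1.72, SE 0.42) among them, and 1 ACC oxidase (Cluster-14691.52687, -1.36, SE 0.41) was a DEG with a lower level in roots, which it was not with library totals in place of TMM. Of all unigenes tested, 23% were DEGs with higher and 17.9% with lower levels in roots. In CK_R vs CK_L, EIN2 was the one DEG of 6 tested, at 1.84 (SE 0.56, adjusted p = 0.0317, edgeR with Benjamini-Hochberg adjustment), against 39.1% of all unigenes tested.

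Of 14 further transcription factor unigenes of the bZIP, WRKY, bHLH and MYB families in the study's tables, 9 could be tested in Cd_R vs CK_R. Of these, 6 had positive and 3 negative log2 fold changes, against 48.2% positive over all unigenes tested. Their median was 0.29, with 0 calls by edgeR. In Cd_R vs Cd_L, 8 were tested and all 8 were DEGs, 4 higher and 4 lower in roots, against 40.9% of all unigenes tested, 23% as higher and 17.9% as lower. These lists were also chosen by the study on these libraries. Among unigenes tested in Cd_R vs CK_R, the 7 AP2/ERF unigenes had the widest range of the 4 lists, from -2.39 to 2.02. Log2 fold changes ran from -1.42 to 1.31 for the 9 tested of the 14. They ran from -0.45 to 0.83 for the ethylene pathway and from 0.10 to 0.38 for the other AP2/ERF unigenes. Among the untested of the 14, WRKY9 had a ratio of Cd_R to CK_R of 5.62 (40.47 against 7 counts). AIL1, the highest of the 7, had 4.19. A further WRKY unigene had 0.208 (3 against 14 counts), and ERF053 had 0.189. The range thus depends on which unigenes had enough counts, and the difference between lists was not tested.

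**Figure D4:**
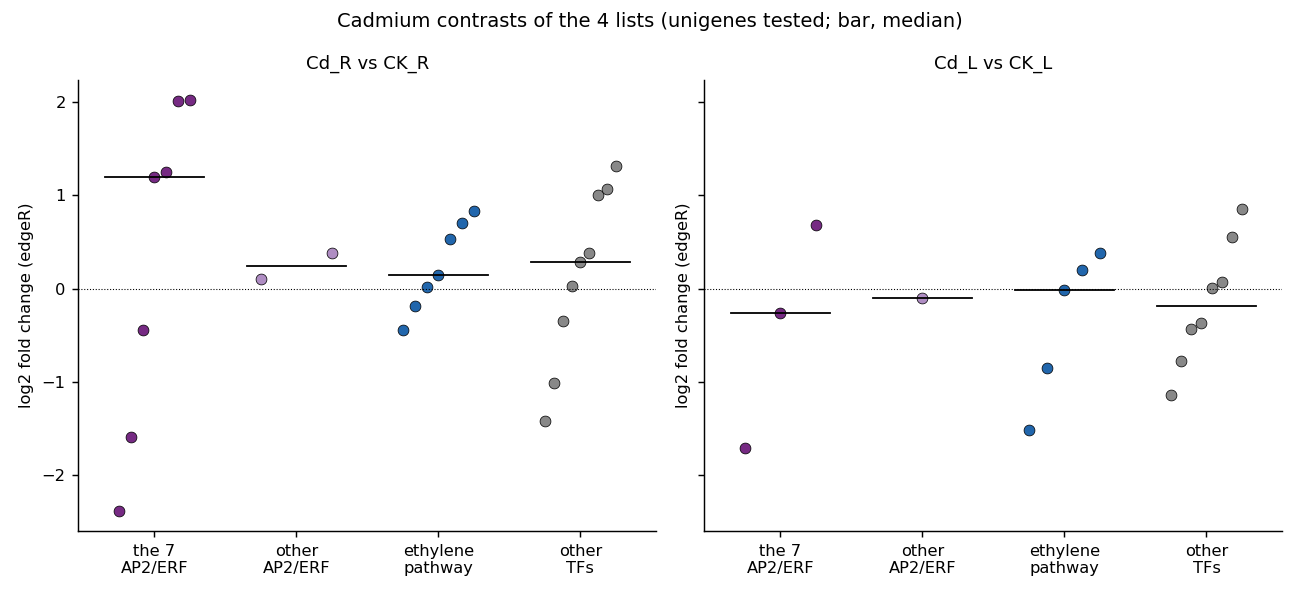
Log2 fold changes (edgeR) of the unigenes tested in Cd_R vs CK_R (left) and Cd_L vs CK_L (right), for the 7 AP2/ERF unigenes, the other AP2/ERF unigenes, the ethylene pathway and the other transcription factors (TFs). Each point is a unigene and each bar the median of its list, which for the 7 is 1.20 in roots.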

How the data were processed

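RNA-seq libraries of leaves and roots of the G10 ecotype were analysed, 12 in all, from the table that the authors deposited. Its values are expected counts, which the authors estimated per unigene and library with RSEM after de novo assembly with Trinity and clustering with Corset, without normalization or a filter. All were rounded to whole numbers before testing. Columns were assigned to groups and replicates by their names. Replicates are separate pots, and no 2 libraries held identical counts.

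Groups were compared in R 4.3.3 with the quasi-likelihood test of edgeR 4.0.16 (TMM, filterByExpr) on the 6 libraries of each comparison, and on all 12 for the interaction, with Benjamini-Hochberg adjustment over all unigenes tested. DEGs had an adjusted p of at most 0.05 and differed by 1 or more on the log2 scale. SE values were derived from the F statistic, as the size of the log2 fold change over the root of F. CPM were computed from the counts on the TMM scale, and log2 CPM with a prior count of 2. Against a group without counts, a fold change is a lower bound on a floor of 3 counts over that group. Floors and exact 95% intervals cover counting error only, and reads without molecular identifiers are not independent molecules. Pairs of unigenes were compared by exact permutation.

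All 7 unigenes are named, with the other AP2/ERF and ethylene unigenes of the study's tables and, for each of the 7, the 2 annotated unigenes of highest r. The unigenes and lists were chosen with earlier results of these data known, and the study chose them on these libraries. The p-values therefore describe these libraries. Alternatives were RLE size factors, library totals, no filter, 10 counts in each of 3 libraries, DESeq2 1.42.0 (at an alpha of 0.05, with and without independent filtering), 1 fit of all libraries, the replicate number as a block, another prior count (0.5), Spearman's rho and leaving out libraries. DESeq2 without Cook's filter, leaving out CK_R replicate 3 and Cd_R replicate 1 together, and pairs among all members with at least 5 counts per library on average were chosen after seeing the data. The edgeR comparisons of 2 groups and the exact permutation test were tried on simulated data, while DESeq2 was not. Sequences and lengths of the unigenes were not used here, so that levels are compared within a unigene only.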

Additional observations from a re-analysis of the deposited data

How the results depend on the processing

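The number of the 7 unigenes called in Cd_R vs CK_R was 0 under every edgeR setting and 1 (ERF053) under each of the 3 DESeq2 settings. In CK_R vs CK_L it was 1, against 2 with the filter of 10 counts in each of 3 libraries, 3 with default DESeq2 settings, 4 with all 12 libraries in one fit, and 1 to 3 with each library left out in turn (3 without CK_L replicate 2 and 2 without CK_R replicate 1). In Cd_R vs Cd_L it was 5 or 6 under all settings. RAP2.2 was not called there without the filter on low counts (adjusted p = 0.0557, edgeR), nor ERF11 with all 12 libraries in one fit (adjusted p = 0.0715, edgeR). As the shares of all unigenes called under these alternatives are not given here, a larger count of the 7 cannot be told from a setting that calls more unigenes. Same-numbered libraries did not deviate together in a way that pairs them (r of their deviations from the group means between -0.39 and 0.43), and a replicate block left the counts at 0 for both Cd against CK comparisons, 6 for Cd_R vs Cd_L and 1 for CK_R vs CK_L. Root pairs that passed numbered 0, against 1 (RAP2.2 with ERF053) with library totals and with Spearman's rho, and 0 to 1 with a library left out, the 1 being without Cd_R replicate 1. Leaving out the 2 farthest libraries, or CK_R replicate 3 and Cd_R replicate 1 together, leaves 4 root libraries, for which r was computed without a count of pairs. Signs turned in leave-one-out fits for ERF11 in Cd_R vs CK_R (-2.14 to 0.62, and -2.15 without CK_R replicate 3 and Cd_R replicate 1), SHN1 in Cd_L vs CK_L (-0.032 to 1.37), ERF053 in Cd_R vs Cd_L (-0.19 to 0.43), and in the interaction for RAP2.2 (-0.55 to 3.00) and ERF11 (-0.40 to 2.34, and -0.43 without CK_R replicate 3 and Cd_R replicate 1). The cause was not tested. With library totals in place of TMM, the median over all unigenes on the log2 scale moved to 0.59 (Cd_R vs Cd_L), 0.55 (CK_R vs CK_L), 0.14 (Cd_R vs CK_R) and 0.10 (Cd_L vs CK_L), while none of the 7 turned its sign. Of the values of single unigenes under alternatives, 452 kept their sign and side of the threshold, 9 turned their sign, 4 lost a call and 4 gained one. This tally leaves out unigenes that were not tested in the main fit of a comparison, among them HRE2, ERF003 and AIL1 in CK_R vs CK_L. Depth limits the leaf comparisons most, where 4 of the 7 had too few counts to be tested.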
